A study of Mus musculus with 6 samples.

Results

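The 48 genes described here encode the subunits of heterotrimeric G proteins and the regulators of G protein signalling (RGS proteins) that turn them off. They are all the genes of a mouse expression array whose single annotated symbol is that of an alpha subunit (15 genes), one of the beta subunits 1 to 5 (5 genes), a gamma subunit whose symbol is Gng with a number (9 genes, which leaves out Gngt1 and Gngt2) or a numbered RGS protein (19 genes), out of 18193 genes in all. The rule reads symbols and no measured value, and 115 probe sets measured these genes. Total RNA came from intestinal cells of adult Swiss Webster mice that carry a CCK-EGFP transgene, in which enhanced green fluorescent protein marks cells that express cholecystokinin, the hormone enteroendocrine I cells release after a fatty meal. The tissue was dissociated with enzymes and sorted by fluorescence into CCK-EGFP cells (3 arrays) and an equal number of non-EGFP cells (3 arrays). Both groups carry the transgene, so they differ in the sort gate and not in genotype or treatment. The non-EGFP gate is a mixture of intestinal cells. Whether the replicates derive from different animals is not given in the labels, and the spread behind each p-value may thus be technical.

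A hormone or nutrient receptor of the heptahelical class acts by loading GTP onto an alpha subunit, which then parts from its beta and gamma partners. Alpha subunits of the Gs family stimulate adenylyl cyclase, those of Gi/o restrain it and release beta-gamma dimers that open potassium channels and hold back secretion, and those of Gq activate phospholipase C beta. RGS proteins speed the hydrolysis of GTP by alpha subunits, mostly of Gi/o and Gq, and so shorten the signal. In enteroendocrine cells, Gq and Gs receptors drive hormone release and Gi/o receptors, such as those for somatostatin, inhibit it.

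Values are log2 RMA intensities, on which 1 unit is a doubling, and a difference is always CCK-EGFP minus non-EGFP. A gene is said to be higher or lower only where limma's adjusted p, with Benjamini-Hochberg adjustment over all 18193 genes, was below 0.05, and of a gene's probe sets the one with the highest mean was used. Of all genes 24.1% were called in one direction or the other. A background level of 4.60 was taken from 71 olfactory and vomeronasal receptor genes, 95% of whose means lay below it. Where readings of one group lay below it they were raised to it, and the fold, or the log2 difference of other pathway genes, is given as a lower bound (at least). In sorted pools, fewer cells of a type and less RNA per cell cannot be told apart. Array medians over all probe sets were 5.66 to 5.72 for CCK-EGFP and 5.37 to 5.55 for non-EGFP cells. The sort was borne out by all 5 enteroendocrine markers measured (Chga, Chgb, Neurod1, Scg3 and Pcsk1), whose summed log2 level was 15.29 to 15.61 on CCK-EGFP arrays and 12.31 to 12.41 on non-EGFP arrays. Transcripts of other cells were present too. The 4 enterocyte markers measured summed to 15.28 to 15.62 and 15.82 to 15.90, and 10 lymphocyte markers to 13.00 to 14.76 and 13.46 to 14.67.

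CCK-EGFP cells carried more transcript of some of these genes. Those higher by at least 2 on the log2 scale included the Gi/o alpha subunits Gnai1, Gnaz and Gnao1 and the gamma subunits Gng4 and Gng10. The regulators Rgs4, Rgs11, Rgs7, Rgs13, Rgs17 and Rgs2 were the others. Of the 48 genes, 14 were higher, 6 were lower and 28 did not pass the test. Among all genes tested, 14.0% were higher and 10.2% lower, so the share of higher members (29.2%) lay above the background and that of lower members (12.5%) near it. Gains were large. Of the members 11 were higher by at least 2 on the log2 scale, against 7.31% of all genes, and 6 by at least 4, against 2.08%. The lower members moved less, 4 of them by at least 1, against 6.66% of all genes. Gng3, one of those 4, and Rgs5 read below the background level on all 6 arrays, and 4 lower members were left when genes with a mean below that level were not tested. The median difference was 0.37 over the members and -0.17 over all genes. Arrays of the groups did not overlap for 30 members, 21 with CCK-EGFP above and 9 below, and the same held for 49.9% of all genes, 21.8% above and 28.1% below. With each array centred on its median, which moves the median over all genes from -0.17 to -0.42, the split was 12 higher and 9 lower members (all genes 2101 and 3605, against 2540 and 1851 as deposited). Single arrays mattered. Without CCK-EGFP replicate 1 the members split 8 higher and 2 lower, without CCK-EGFP replicate 2 they split 8 and 1, and without non-EGFP replicate 2 they split 12 and 3. Calls over all genes fell as well in these fits, from 4391 to 2134, 1870 and 2872. The 8 that stayed higher without each array in turn were Gnai1, Gnaz, Gnao1, Gng4, Rgs4, Rgs13, Rgs2 and Rgs17, and Rgs3 stayed lower.

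**Figure D1:**
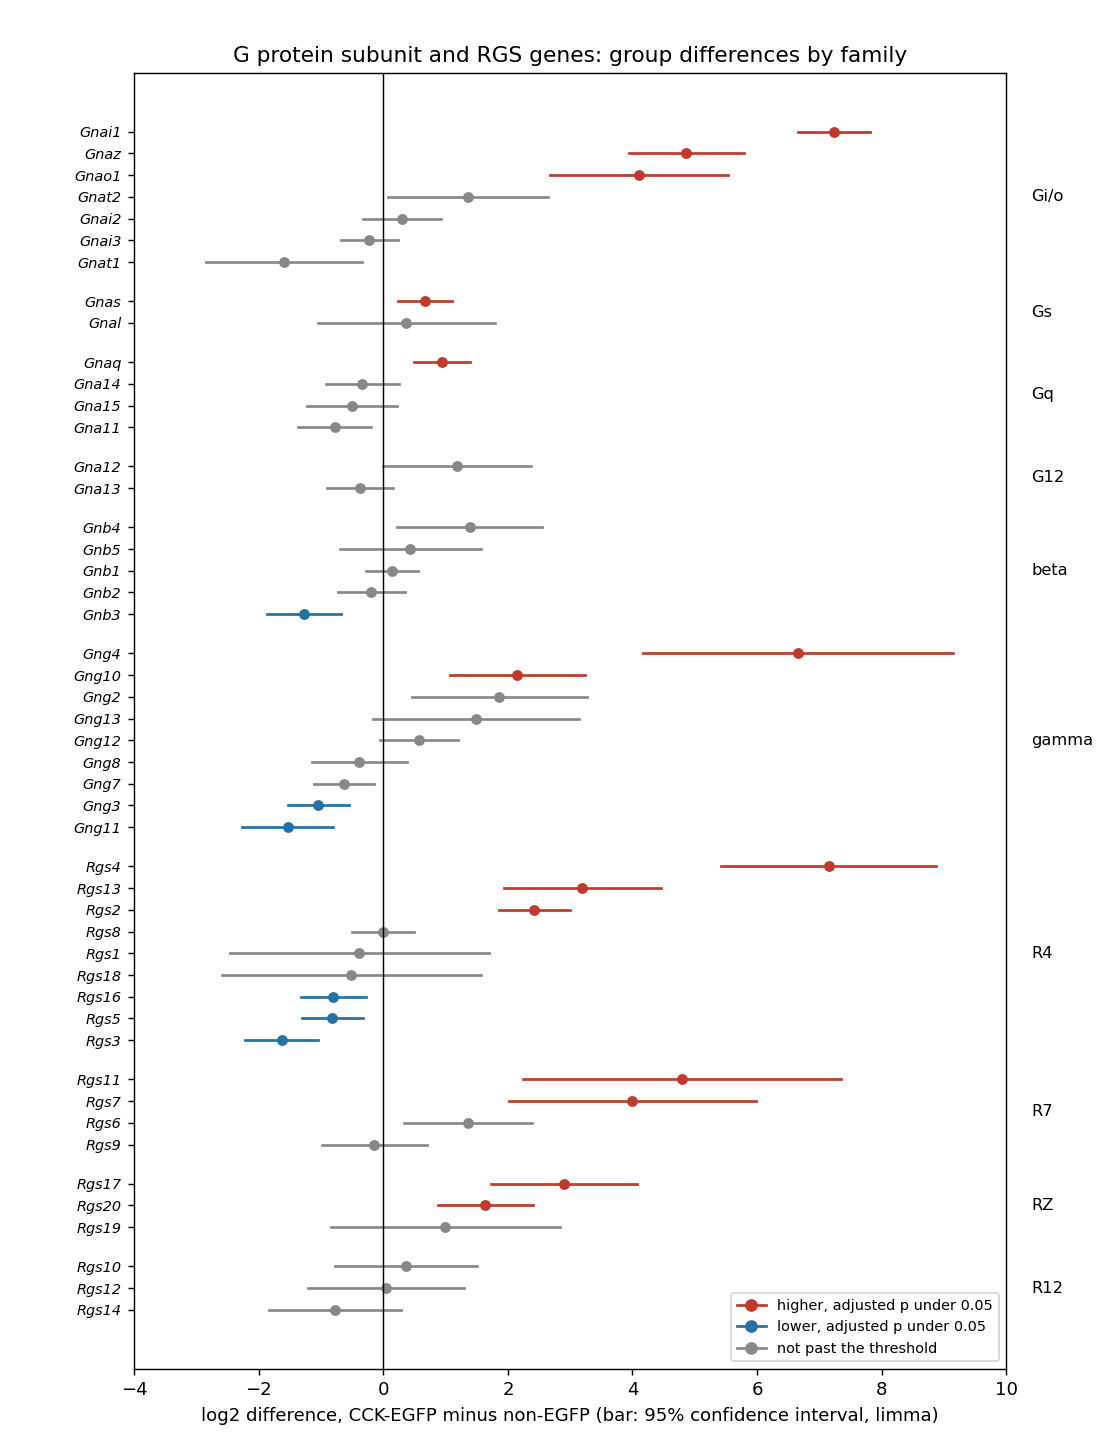
Log2 difference between CCK-EGFP and non-EGFP cells (x axis) for each of the 48 genes, grouped by family, with points for the fitted difference (readings below the background level not raised) and bars for its 95% confidence interval. Gnai1 (7.23), Rgs4 (7.15) and Gng4 (6.66) lie farthest to the right, and no lower gene lies beyond -1.63.

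The Gi/o alpha subunits divided into those that stood far apart between the groups and those that did not. Gnai1, an inhibitor of adenylyl cyclase, read 10.33, 10.17 and 10.54 on CCK-EGFP replicates 1, 2 and 3 and 2.72, 3.42 and 3.20 on the non-EGFP arrays. All non-EGFP readings lay below the background level, and a gap of 6.75 parted the groups. The fitted log2 difference was 7.23 (SE 0.24, adjusted p = 0.000104), and against the background level Gnai1 was at least 53.7-fold higher. Gnaz, which encodes a Gi-like subunit known from neurons and platelets that is resistant to pertussis toxin, read 10.49, 9.94 and 10.07 against 5.59, 4.48 and 5.83. It was higher by 4.87 (SE 0.39, adjusted p = 0.000623), at least 28.4-fold with the 1 non-EGFP reading below the background level raised to it. Gnao1, the Go subunit abundant in neurons and endocrine cells, read 10.76, 10.66 and 10.22 against 5.76, 7.88 and 5.70. Its difference was 4.10 (SE 0.60, adjusted p = 0.00578), or 17.2-fold, and its non-EGFP level was highest on replicate 2.

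The broadly expressed Gi genes behaved otherwise. Gnai2 averaged 11.30 ± 0.27 (SD, n = 3) in CCK-EGFP and 11.00 ± 0.36 in non-EGFP cells, a difference of 0.30 with a 95% interval of -0.32 to 0.93 (adjusted p = 0.396). Gnai3 averaged 10.52 ± 0.21 and 10.75 ± 0.05, a difference of -0.22 with an interval of -0.68 to 0.23 (adjusted p = 0.392). Both genes were therefore present at high level in both groups, and the intervals leave room for changes of less than 1 log2 unit. The transducins, known from photoreceptors, were dim. Gnat2 (6.72 ± 0.17 and 5.36 ± 1.12) differed by 1.36 and did not pass (adjusted p = 0.108), although it did without non-EGFP replicate 1 (adjusted p = 0.0283). Gnat1 stood at 3.56 ± 0.24 and 5.15 ± 1.06, below the background level in CCK-EGFP cells, and its difference of -1.59 did not pass (adjusted p = 0.0682). That of Gnat1 passed with the replicate number as a block (adjusted p = 0.0465), with arrays centred (0.04) and without non-EGFP replicate 1 (0.039).

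The start of Gnai1, whose 3 non-EGFP readings were all below the background level, lies in a window rich in G and C. The 250 bases before it (chr5:18360414-18360663, minus strand, RefSeq on GRCm38.p6) are printed with matches to the GC box, GGGCGG on either strand, in capitals. They hold 79.2% G and C and 3 such matches.
Gnai1: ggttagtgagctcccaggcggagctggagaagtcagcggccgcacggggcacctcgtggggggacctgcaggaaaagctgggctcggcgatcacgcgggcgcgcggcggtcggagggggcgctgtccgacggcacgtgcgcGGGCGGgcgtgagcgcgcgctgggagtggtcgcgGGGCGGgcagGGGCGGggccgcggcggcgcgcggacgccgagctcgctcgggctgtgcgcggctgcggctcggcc

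Subunits of the stimulatory and Gq families moved little on the probe sets used, and Gnaq and Gna11 differed more on some others. Gnas, the stimulatory alpha subunit, read 12.34, 12.48 and 12.19 in CCK-EGFP and 11.57, 11.78 and 11.65 in non-EGFP cells. The groups did not overlap, and the difference of 0.68 (SE 0.18) was a 1.60-fold increase (adjusted p = 0.0399). With each array removed in turn the call was lost (adjusted p 0.0599 to 0.141), as it was with the replicate block (0.0651) or with arrays centred (0.15). Gnal, the olfactory relative of Gnas, averaged 7.11 ± 0.19 and 6.74 ± 1.25 and did not pass (adjusted p = 0.657), its non-EGFP values running from 5.31 to 7.57.

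Gnaq, which couples receptors to phospholipase C beta, read 10.27, 10.15 and 10.13 against 9.27, 9.41 and 9.04. Every CCK-EGFP array lay above every non-EGFP array, by 0.94 on average (SE 0.19, 1.92-fold, adjusted p = 0.0157). The call ended without CCK-EGFP replicate 1 (adjusted p = 0.0661) or 2 (0.0634) and with arrays centred (0.0574). Its close relative Gna11 read 11.57, 12.05 and 12.30 against 12.61, 12.93 and 12.73. That difference of -0.78 did not pass as deposited (adjusted p = 0.0604) and passed with arrays centred (0.0257). Gna14, the chromosomal neighbour of Gnaq, and Gna15, a Gq-family subunit of blood cells, were below the background level on all 6 arrays. The G12 family subunits did not pass by the probe sets used. Gna13 averaged 11.39 ± 0.16 and 11.77 ± 0.28 (difference -0.37, adjusted p = 0.234), and Gna12 averaged 7.85 ± 0.42 and 6.67 ± 0.95 (difference 1.18, adjusted p = 0.126).

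Among the beta subunits, which every alpha subunit needs to meet its receptor, 1 of 5 passed the test, against 24.1% of all genes. Gnb1 (12.93 ± 0.06 and 12.79 ± 0.13) and Gnb2 (9.69 ± 0.33 and 9.88 ± 0.09) were abundant in both groups and differed by 0.15 and -0.20, with 95% intervals of -0.27 to 0.56 and -0.73 to 0.34. For Gnb1 this turns on the probe set, since the other two were called lower (-0.90 and -2.18) and the mean of all 3 was -0.98 (adjusted p = 0.016). Gnb3, the beta subunit of cones and taste cells, was lower in CCK-EGFP cells, at 3.85, 4.02 and 4.08 against 5.40, 5.57 and 4.80. All 3 CCK-EGFP readings lay below the background level (difference -1.27, SE 0.25, adjusted p = 0.0153), which puts the fall at 1.58-fold or more. Removal of CCK-EGFP replicate 1 (0.0608) or 2 (0.0593) ended this call. Gnb4 (7.25, 8.68 and 7.58 against 6.28, 5.88 and 7.20) differed by 1.39 and did not pass (adjusted p = 0.0811), though it did without non-EGFP replicate 3 (0.0484). Gnb5, the beta subunit that binds R7-type RGS proteins in place of a gamma subunit, averaged 7.78 ± 0.81 and 7.35 ± 0.54 (difference 0.43, 95% interval -0.70 to 1.56, adjusted p = 0.505).

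Gamma subunits anchor the dimer in the membrane, and 4 of the 9 Gng genes passed the test, 2 in each direction, against 14.0% higher and 10.2% lower among all genes. Gng4, a gamma subunit known from brain, read 12.16, 11.77 and 12.01 in CCK-EGFP cells. On the non-EGFP arrays it read 3.57, 7.86 and 4.54, so that replicate 2 alone was above the background level. The difference was 6.66 (SE 1.04, adjusted p = 0.00714), or at least 78.4-fold with readings below the background level raised to it. Gng10, a widely expressed subunit, read 10.89, 11.22 and 10.86 against 7.78, 9.39 and 9.34, a 4.45-fold increase (difference 2.15, SE 0.45, adjusted p = 0.0191) that did not pass once CCK-EGFP replicate 1 (0.0597) or 2 (0.0755) was removed.

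Gng11, a gamma subunit of many tissues, was lower, at 7.20, 6.45 and 7.14 against 8.72, 8.67 and 8.01. The groups were 0.81 apart at their nearest arrays and 1.54 apart on average (SE 0.31, adjusted p = 0.0161), and the call ended without CCK-EGFP replicate 2 (0.0558) or non-EGFP replicate 2 (0.0522). Gng3, a neuronal subunit, was also called lower (difference -1.04, SE 0.20, adjusted p = 0.0149), but all 6 readings lay below the background level, between 2.98 and 4.35, and the call ended without CCK-EGFP replicate 1 (0.0573) or 2 (0.0593). Among those not called, Gng2 had the largest difference on the probe set used. It read 9.71, 10.21 and 10.65 against 7.24, 8.20 and 9.54, higher within each replicate number (difference 1.86, adjusted p = 0.0625, or 0.0256 with that number as a block), and it passed without non-EGFP replicate 3 (0.016). Gng12 (12.03 ± 0.10 and 11.46 ± 0.45), Gng13 (6.57 ± 1.20 and 5.09 ± 0.86), Gng8 (5.20 ± 0.39 and 5.58 ± 0.46) and Gng7 (3.94 ± 0.22 and 4.58 ± 0.15) did not pass, with adjusted p from 0.0623 for Gng7 to 0.381 for Gng8.

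**Figure D2:**
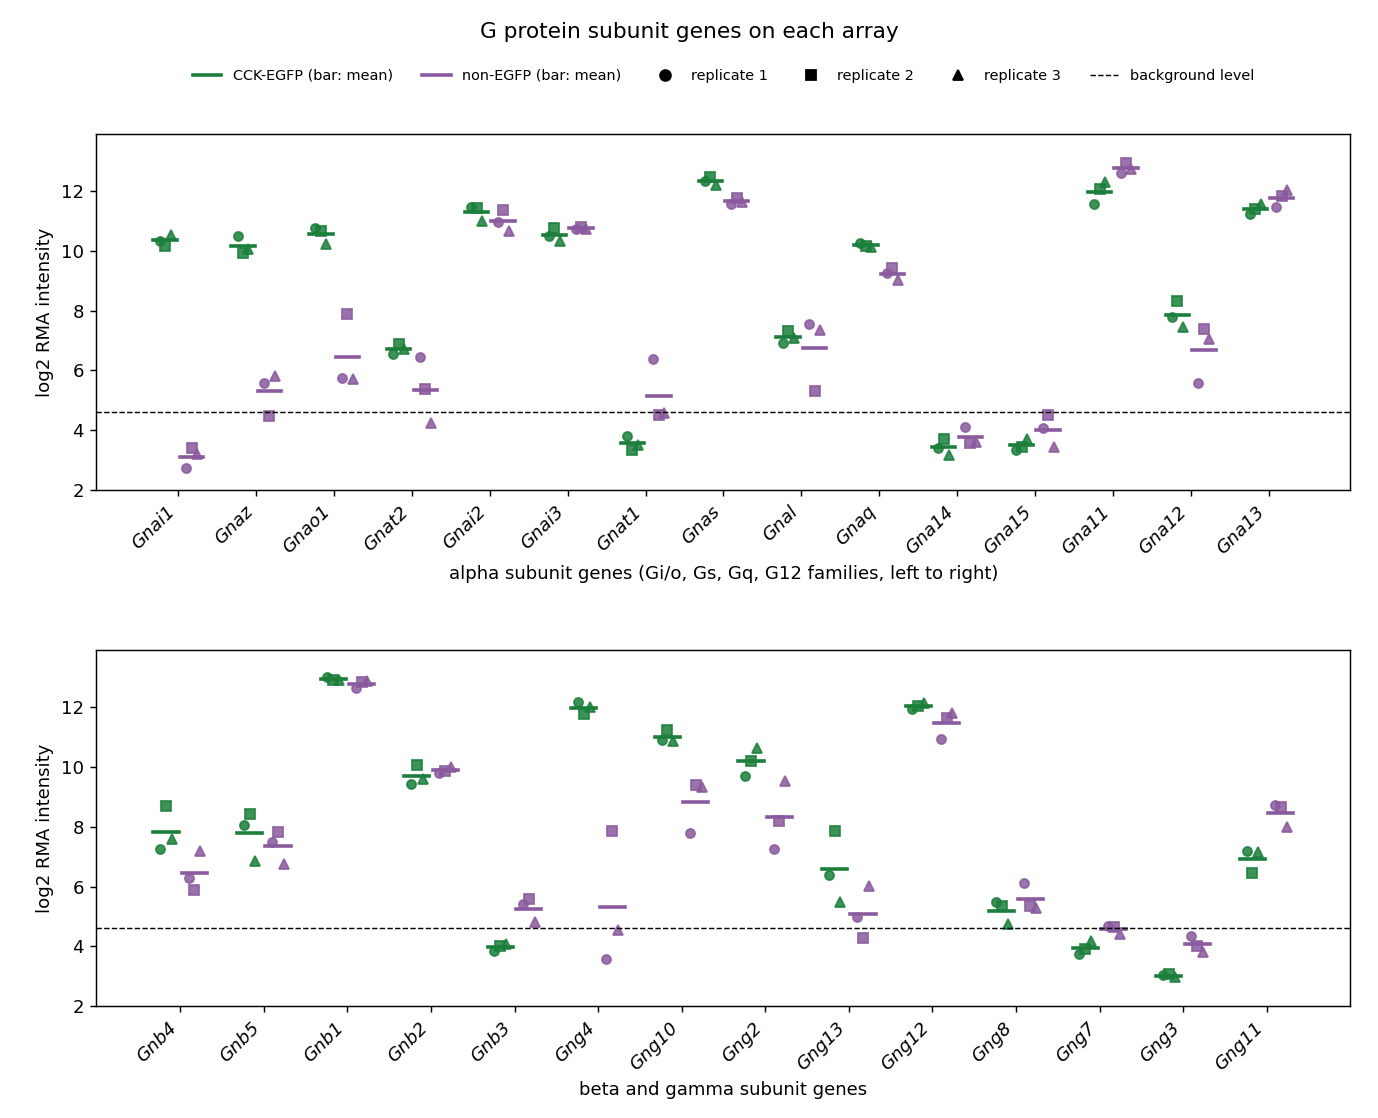
Log2 RMA intensity (y axis) of each alpha subunit gene (top) and each beta and gamma subunit gene (bottom) on the 6 arrays, with a symbol per replicate, a bar for the group mean and a dashed line at the background level of 4.60. Gnai1, Gnaz, Gnao1 and Gng4 stand far apart between the groups, while Gnai2, Gnai3, Gnb1 and Gnb2 sit together.

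Of the 19 RGS genes 7 were higher (36.8%, against 14.0% of all genes) and 3 lower (15.8%, against 10.2%). Within the R4 family, small RGS proteins made of little more than the catalytic domain, 3 genes were higher and 3 lower. Rgs4, which acts on Gi/o and Gq subunits, read 12.14, 11.67 and 12.17 in CCK-EGFP cells and 6.59, 3.74 and 4.20 in non-EGFP cells. Even the highest non-EGFP array was 5.08 below the lowest CCK-EGFP array. The difference was 7.15 (SE 0.72, adjusted p = 0.00147), and at least 106-fold with readings below the background level raised to it. Rgs2, which prefers Gq, was present in both groups and still separate, at 12.72, 12.60 and 12.11 against 10.29, 9.93 and 9.93 (difference 2.43, SE 0.24, 5.38-fold, adjusted p = 0.0013). Rgs13, known from B cells, mast cells and tuft cells, read 10.82, 10.19 and 9.36 against 7.28, 5.99 and 7.51 (difference 3.20, SE 0.52, 9.17-fold, adjusted p = 0.00848). Its CCK-EGFP values were highest on replicate 1 and lowest on replicate 3.

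Rgs3 was the R4 gene that fell furthest, from 8.50, 8.11 and 8.32 in non-EGFP to 6.32, 6.68 and 7.04 in CCK-EGFP cells (difference -1.63, SE 0.25, 3.10-fold lower, adjusted p = 0.00646). Rgs16 read 4.89, 5.17 and 4.91 against 6.12, 5.64 and 5.61. This small fall (difference -0.80, adjusted p = 0.0418) ended as a call without any array other than non-EGFP replicate 3 (adjusted p 0.0725 to 0.13) and with the replicate number as a block (0.0729). Rgs5, known from vascular mural cells, was below the background level on all 6 arrays (3.29 to 3.46 and 4.05 to 4.50). It was called lower (difference -0.82, adjusted p = 0.0322), a call lost on removal of non-EGFP replicate 2 or of any of the CCK-EGFP arrays (adjusted p 0.0731 to 0.109). Rgs8 lay between 2.94 and 3.46 on all arrays. Rgs1 and Rgs18 did not pass and varied between arrays of each group.

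Rgs4 and Rgs5 adjoin each other on chromosome 1 with no coding gene between them, in RefSeq's GRCm38.p6 annotation. Rgs4 was higher, and Rgs5 read below the background level throughout. Rgs2, Rgs13 and Rgs1 also lie next to one another there, and of these Rgs2 and Rgs13 were higher and Rgs1 was not (difference -0.38, adjusted p = 0.755). The 250 bases before the starts of Rgs4 (chr1:169747643-169747892, minus strand), Rgs5 (chr1:169655251-169655500, plus strand), Rgs13 (chr1:144177373-144177622, minus strand) and Rgs2 (chr1:144004150-144004399, minus strand) are given to set these neighbours side by side. For Rgs1 no promoter was matched, so its window is missing from this set. Capitals mark matches on either strand to CAGATG, an E-box of the type NEUROD1 binds, to TATAAA and to the GC box. Rgs4 holds 1 E-box and 1 TATAAA, Rgs13 holds 2 E-boxes, Rgs2 holds 4 GC boxes and neither of the others, and Rgs5 holds no match.
Rgs4: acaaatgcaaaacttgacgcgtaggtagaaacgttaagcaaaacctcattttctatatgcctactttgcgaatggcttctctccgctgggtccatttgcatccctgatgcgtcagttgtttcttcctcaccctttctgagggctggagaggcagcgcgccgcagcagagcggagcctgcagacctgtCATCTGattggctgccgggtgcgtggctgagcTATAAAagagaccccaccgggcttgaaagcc
Rgs5: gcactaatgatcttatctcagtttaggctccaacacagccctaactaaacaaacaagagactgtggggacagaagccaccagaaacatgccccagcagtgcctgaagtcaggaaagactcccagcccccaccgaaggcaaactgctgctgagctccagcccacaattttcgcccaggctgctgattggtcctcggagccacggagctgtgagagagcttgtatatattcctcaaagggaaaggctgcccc
Rgs13: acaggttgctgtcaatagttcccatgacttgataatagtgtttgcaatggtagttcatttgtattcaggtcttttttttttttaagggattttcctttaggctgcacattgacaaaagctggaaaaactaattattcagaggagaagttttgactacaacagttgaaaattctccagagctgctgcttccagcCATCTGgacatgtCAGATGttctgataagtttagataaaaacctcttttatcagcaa
Rgs2: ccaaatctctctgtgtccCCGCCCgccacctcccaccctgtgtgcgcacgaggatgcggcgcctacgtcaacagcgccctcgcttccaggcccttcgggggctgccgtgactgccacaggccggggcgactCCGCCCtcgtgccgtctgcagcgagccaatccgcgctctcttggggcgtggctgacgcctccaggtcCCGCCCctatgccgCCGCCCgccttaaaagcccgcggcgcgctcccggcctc

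Proteins of the R7 family work as dimers with the product of Gnb5 and act on Gi/o. Of its 4 genes 2 were higher, against 14.0% of all genes. Rgs11 read 10.03, 9.63 and 9.77 in CCK-EGFP cells and 3.15, 7.62 and 4.28 in non-EGFP cells. The CCK-EGFP arrays were close together, whereas the non-EGFP arrays lay far from one another with replicate 2 highest, as for Gng4 and Gnao1. The difference was 4.79 (SE 1.07, adjusted p = 0.0226), at least 18.4-fold, and the call was lost on removal of non-EGFP replicate 3 or of any of the CCK-EGFP arrays (adjusted p 0.0548 to 0.0736). Rgs7 read 8.12, 8.56 and 7.19 against 5.83, 3.32 and 2.72 (means 7.96 ± 0.70 and 3.96 ± 1.65, at least 7.72-fold, adjusted p = 0.018). Removing non-EGFP replicate 2 (0.0588) or CCK-EGFP replicate 1 (0.0621) or 2 (0.0712) ended that call. Rgs6 was near the background level, at 6.05, 4.96 and 4.86 against 4.28, 4.24 and 3.26. Its difference of 1.36 missed the threshold (adjusted p = 0.062) and passed with the replicate number as a block (0.0365). Rgs9, the photoreceptor and striatal member, averaged 6.06 ± 0.57 and 6.21 ± 0.39 (adjusted p = 0.773).

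Of the 3 genes of the RZ family, whose members act on Gz and Gi subunits, 2 were higher, against 14.0% of all genes. Rgs17 read 8.28, 8.23 and 7.59 against 5.90, 4.08 and 5.44 (difference 2.90, SE 0.49, adjusted p = 0.00942). With the 1 non-EGFP reading below the background level raised to it, the increase was at least 6.61-fold. Rgs20 read 6.82, 6.56 and 5.82 against 5.11, 4.62 and 4.55 (difference 1.64, SE 0.32, adjusted p = 0.0147), an increase of at least 3.08-fold that did not pass once CCK-EGFP replicate 1 (0.0516) or 2 (0.0627) was removed. Rgs19 averaged 8.55 ± 0.34 and 7.55 ± 1.62 and did not pass (adjusted p = 0.351). Non-EGFP replicate 1 (5.70) lay far below the other two (8.72 and 8.24), and without it the difference was 0.07 (adjusted p = 0.882). None of the 3 R12 genes passed, against 24.1% of all genes that did. Rgs14 (6.28 ± 0.41 and 7.06 ± 0.81, adjusted p = 0.225) passed without non-EGFP replicate 1 (0.0473), while Rgs10 (6.39 ± 0.95 and 6.02 ± 0.26, adjusted p = 0.569) and Rgs12 (5.86 ± 0.32 and 5.82 ± 1.05, adjusted p = 0.962) overlapped between the groups.

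**Figure D3:**
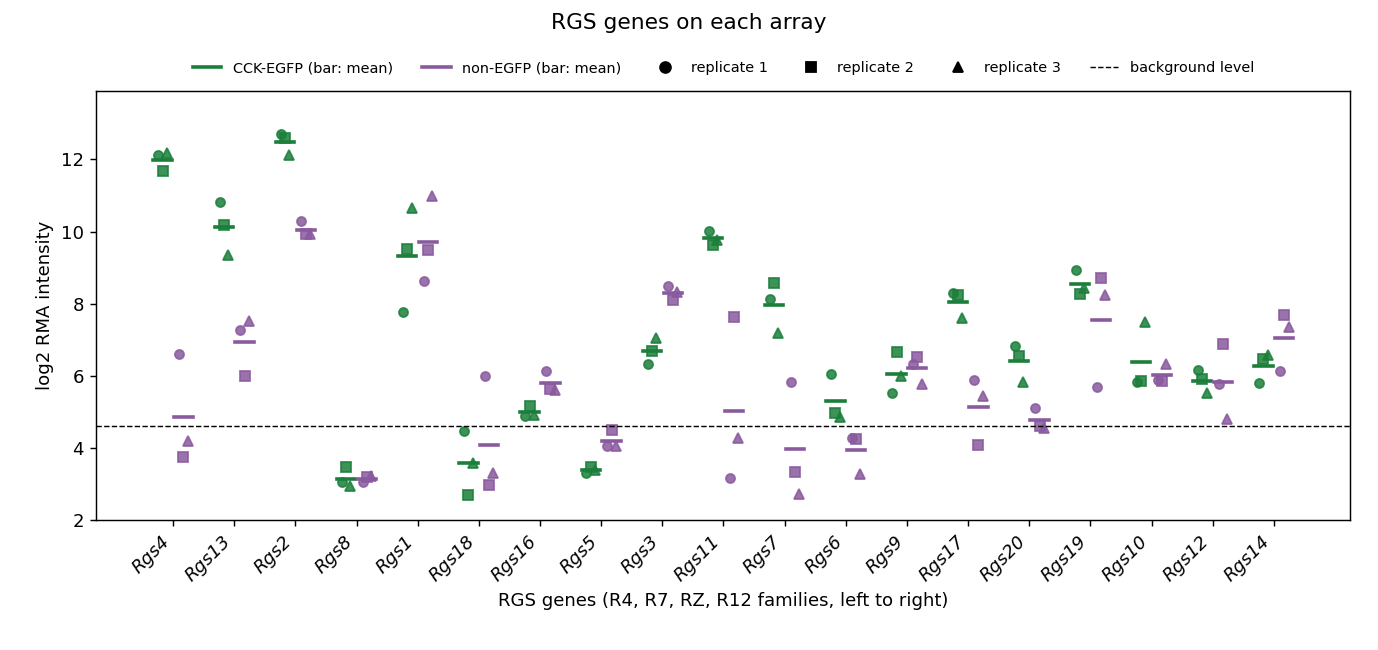
Log2 RMA intensity (y axis) of the 19 RGS genes on the 6 arrays, by family from left to right, with a symbol per replicate, a bar for the group mean and a dashed line at the background level of 4.60. Rgs4, Rgs13, Rgs2, Rgs11, Rgs7, Rgs17 and Rgs20 lie higher on every CCK-EGFP array than on any non-EGFP array, and Rgs16, Rgs5 and Rgs3 lie lower.

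A few RGS genes followed markers of other cells from array to array. Rgs1, a gene of activated lymphocytes, read 7.76, 9.53 and 10.66 in CCK-EGFP and 8.62, 9.49 and 10.99 in non-EGFP cells. The summed log2 level of the 10 lymphocyte markers, none of which passed the test, was 13.00, 13.67 and 14.76 and then 13.46, 13.80 and 14.67 on the same arrays. Both were lowest on replicate 1 and highest on replicate 3 in each group. Rgs18, a gene of platelets and myeloid cells, read 4.48, 2.68 and 3.58 against 5.99, 2.98 and 3.31 and passed the background level on non-EGFP replicate 1 only. There the platelet gene Pf4 read 10.43, against 2.57 and 3.04 on the other non-EGFP arrays, and Pf4 read 7.45, 3.76 and 3.23 on the CCK-EGFP arrays. Of the 5 platelet and erythroid markers measured, 1 was lower and 0 higher, and the list summed to 7.02 to 9.49 in CCK-EGFP and 7.91 to 11.83 in non-EGFP cells. The part of these cells in the levels of Rgs1 and Rgs18 was not tested.

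Tuft cell markers moved with the groups beside Rgs13. Of 7 measured, Dclk1, Sh2d6, Avil and Alox5 were higher and 0 were lower, and the list summed to 11.87 to 13.16 in CCK-EGFP and 10.30 to 10.79 in non-EGFP cells. Trpm5 (adjusted p = 0.156) and Ltc4s (0.67) did not pass, and Pou2f3, the factor that defines tuft cells, was below the background level on all 6 arrays (2.53 to 3.22). On the CCK-EGFP arrays Rgs13 and the summed tuft markers were both highest on replicate 1 and lowest on replicate 3. The summed enteroendocrine markers fell in the same order there (15.61, 15.58 and 15.29). The non-EGFP arrays did not share this order. Rgs13 read 7.28, 5.99 and 7.51 on them and the tuft list 10.30, 10.79 and 10.55, so Rgs13 was lowest where the list was highest. The part of tuft cells in the level of Rgs13 was not tested. Gng13, a gamma subunit of taste and tuft cells, did not pass (adjusted p = 0.154). Of the 6 markers of enteric neurons and glia measured, Ret, Uchl1 and Gfap were higher and 0 lower, and the list summed to 10.51 to 11.56 against 6.96 to 7.53. Ret made up most of that CCK-EGFP sum, at 11.34, 10.75 and 10.08, and Gfap averaged 4.69 and 3.45, near or below the background level. Elavl4, Sox10 and S100b were at or near the background level, at 3.63 to 5.60 over all arrays. These genes did not pass. Each read lower on every CCK-EGFP array than on any non-EGFP array, as did 28.1% of all genes. The part of neurons in Rgs4, Gnao1 or Gng4 was not tested. The 9 stromal, endothelial and mural markers summed to 8.03 to 8.56 and 8.13 to 8.67, with 1 lower (Des), beside Rgs5 and Gng11. The 8 myeloid and mast cell markers summed to 9.10 to 11.74 on CCK-EGFP arrays and to 10.59 or more on non-EGFP arrays, and none passed.

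**Figure D4:**
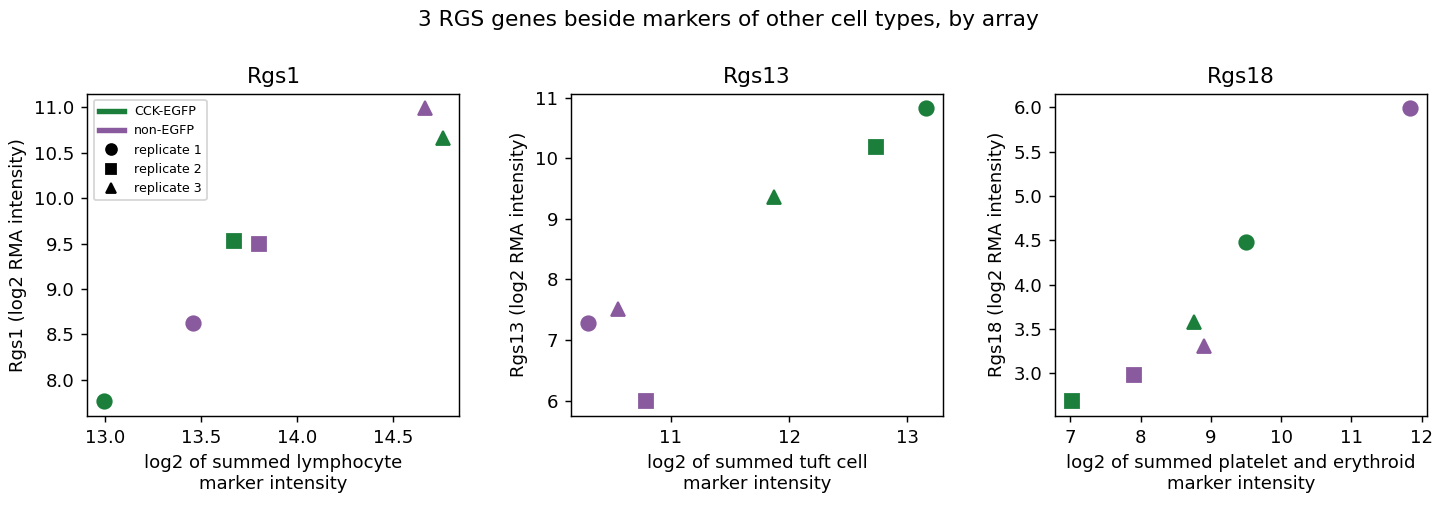
Log2 RMA intensity of Rgs1, Rgs13 and Rgs18 (y axes) against the log2 of the summed intensity of lymphocyte, tuft cell, and platelet and erythroid markers (x axes), 1 point per array, coloured by group and shaped by replicate. Rgs1 runs from 7.76 to 10.99 over both groups alike, Rgs13 parts the groups, and Rgs18 is highest on non-EGFP replicate 1 (5.99).

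Most of the large increases were seen with more than 1 probe set. All 3 probe sets of Gnai1 rose, by 7.23, 6.22 and 2.99, and all 3 of Rgs4, by 7.15, 5.89 and 3.44 (adjusted over all probe sets, p at most 0.00646). Both probe sets of Gnaz (4.87 and 3.71) and of Rgs17 (2.90 and 4.07) rose, as did 3 of 4 of Rgs2 (2.43, 2.33 and 2.49). Gng4 rose by 6.66 and 6.04 on 2 probe sets while the other, at 4.63 to 5.73 on all arrays, differed by -0.53 and did not pass. For Gnao1, increases of 4.10 and 3.92 stood beside another probe set below the background level on all arrays (-0.53). Rgs11, Rgs7, Rgs13, Gng10, Gnb3, Gng3 and Gng11 have 1 probe set each, so no such comparison exists for them.

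Elsewhere the probe sets of a gene disagreed. Of 7 for Gnaq, 3 rose (0.94, 1.60 and 1.66), and the others ran from -1.30 to 0.82 without passing. Rgs3 fell on 2 of 4 (-1.63 and -1.24, with -0.42 and -0.37 on the others), and the mean of its probe sets did not pass (-0.91, adjusted p = 0.111). Rgs20 rose on 1 of 3 (1.64, against -0.27 and 0.05). Rgs5 fell on 1 of 4 (-0.82), with -0.14, -0.35 and -0.48 on those not called. Neither Rgs16 (-0.80, 0.06 and 1.40) nor Gnas (5 probe sets, -0.25 to 0.70) kept a call when each probe set was tested alone. Gna13, not called by the probe set used, fell on the 6 others, with differences from -1.73 to -0.89, and the mean of its 7 probe sets was lower by 1.16 (adjusted p = 0.00505). Gng2, not called by the probe set used (1.86), rose by 2.53 on another (adjusted p = 0.00924) and differed by 0.02 and 0.13 on its remaining ones. Gna12 differed by 1.18 on the probe set used and fell by 1.18 on another (adjusted p = 0.0198). Gng12 (0.57 on the probe set used and -0.76 on the other) and Gng13 (1.48 and -0.72) also differed in sign, and none of these passed.

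**Figure D5:**
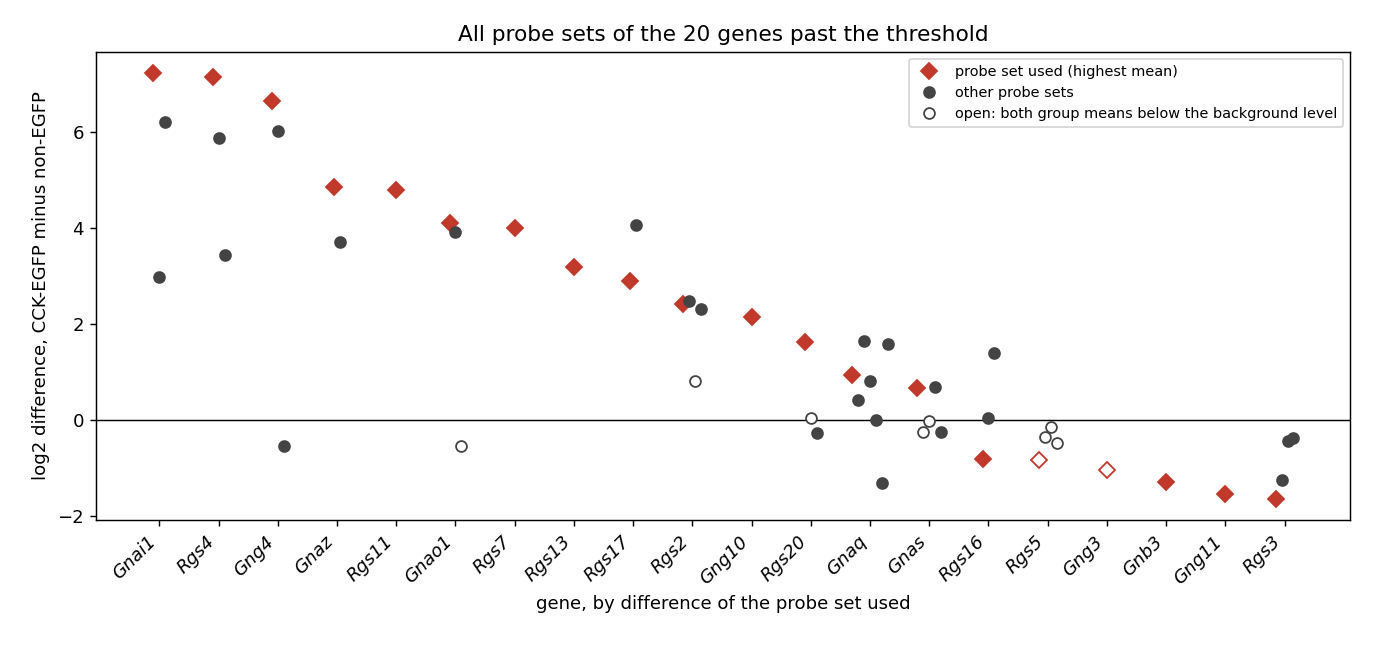
Log2 difference (y axis) of every probe set of the 20 genes past the threshold (x axis), with diamonds for the probe set used, circles for the others, and open symbols where both group means lay below the background level. The probe sets of Gnai1 and Rgs4 all lie above 2.9, while those of Gng4, Gnao1, Rgs20, Gnaq, Gnas and Rgs16 fall on both sides of 0.

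Other genes of the pathway were taken from lists drawn up for this comparison, to be read against the 14.0% of all genes that were higher and the 10.2% that were lower. Of 17 partners and chaperones of G proteins, 3 were higher, 1 was lower and 13 did not pass, shares near those of all genes, with a median difference of -0.20. Rasd1, a Ras-like activator of Gi, was higher by 3.28 (9.16, 10.16 and 8.87 against 4.92, 6.70 and 6.73, adjusted p = 0.0111). Ccdc88a, which encodes the Gi modulator girdin, read 6.37, 5.78 and 6.57 against non-EGFP values all below the background level, and was higher by at least 1.64 (adjusted p = 0.00148). Rgs7bp, the membrane anchor of R7 RGS proteins, read 5.92, 5.54 and 5.55 against 4.86, 4.46 and 4.67 (higher by at least 0.96, adjusted p = 0.0182), near the background level. Gngt1, the rod gamma subunit, read 6.96, 6.69 and 5.72 in non-EGFP cells and below the background level on all CCK-EGFP arrays (adjusted p = 0.00728), a difference of -1.86 with these raised to that level. Gngt2, the cone gamma subunit, did not pass (difference -0.07, adjusted p = 0.83). The chaperones of alpha subunits Ric8a (12.23 ± 0.09 and 12.57 ± 0.24) and Ric8b (8.39 ± 0.16 and 8.63 ± 0.41) did not pass.

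Of 9 receptor kinases and arrestins, which silence receptors, 2 were higher and 1 lower, again near the shares of all genes. Grk3 averaged 10.21 ± 0.43 and 6.37 ± 0.42 (difference 3.84, adjusted p = 0.000737), and Grk6 was higher by 0.95 (adjusted p = 0.0231). Arrb1 fell by 1.23 (adjusted p = 0.0156), and Arrb2 differed by 0.84 without passing (adjusted p = 0.109). Among 23 effectors, 6 were higher, 2 lower and 15 not past the test (against 14.0% higher and 10.2% lower of all genes), with a median of -0.12. The higher ones were the adenylyl cyclases Adcy2 (at least 5.31, adjusted p = 0.000417) and Adcy8 (at least 3.50, 0.0133), the phospholipase Plcb4 (4.82, 0.00924), the beta-gamma-gated potassium channel subunits Kcnj3 (at least 4.55, 0.000104) and Kcnj5 (at least 3.65, 0.0127), and Pik3r5, a beta-gamma-binding subunit of PI3 kinase (3.22, 0.00955). Kcnj3 read 9.01, 8.95 and 9.50 against 3.57, 3.62 and 3.88, below the background level on all non-EGFP arrays. Plcb4 read 10.89, 11.17 and 10.82 against 8.05, 4.64 and 5.72. Plcb3 fell by 1.17 (adjusted p = 0.0462). Adcy4 was lower (adjusted p = 0.00227), with a difference of -2.44 after its CCK-EGFP readings below the background level were raised to it.

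The windows before the starts of the members were searched for short motifs. A promoter was matched for 36 of the 48 genes, 11 of the 14 higher ones and 4 of the 6 lower ones. The GC box was present in 21 of the 36, in 7 of the 11 and in 2 of the 4, against 35.4% of the 27025 genes of the table. The E-box CAGATG was present in 7 of the 36, in 3 of the 11 (Rgs4, Rgs13 and Gng4) and in 0 of the 4, against 16.3%. Rgs9, Rgs19, Gna14 and Gnb5, which were not called, hold it as well. TATAAA was present in 5 of the 36, in 2 of the 11 and in 1 of the 4, against 14.3%. The cAMP response element TGACGTCA, present in 1.77% of all genes, was found in 0 of the 36. These matches describe the letters in the windows and no factor's binding.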

How the data were processed

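Total RNA of 6 samples was amplified from picograms with a whole-transcriptome kit, labelled with biotin and hybridised to Affymetrix mouse arrays, per the labels' protocols. The authors deposited 1 table of log2 values for 45101 probe sets, made with RMA per the submitters' processing notes (background correction, quantile normalization, summary of a set's probes). Its version was not given in the sources used here. Quantile normalization can reduce broad shifts between groups, amplification adds noise at low levels, and RMA makes no call of presence.

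Names come from the platform's annotation, which may be outdated: 34945 probe sets had 1 symbol, 932 several and 9160 none, and 64 were controls. The test was limma's moderated one (lmFit, then eBayes, two-sided), version 3.58.1, run in R 4.3.3, after a check on simulated data, with Python 3.11.15 for tables. The members and gene lists were chosen with earlier results of these data known. All members are named, with every array's value for those called and above background in at least 1 group. All probe sets are given for the 6 members with the largest difference in each direction, and up to 4 called genes for each other pathway list. Adcy8, Pik3r5, Adcy4, Plcb3, Gngt2, Ric8a, Ric8b and Arrb2 are named beyond that rule, as are other members' probe sets. These were chosen after their values were seen.

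The replicate numbers of the labels are shared by the groups. Deviations from group means across genes correlated at 0.27, 0.16 and 0.22 for same-numbered arrays and at -0.25 to -0.01 for the rest. A gene's deviations within a group cancel out, so positive values for some pairs of arrays bring negative ones for others. The shared numbers may pair the samples, but the labels do not say what they mark. The comparison itself has no block, so its SEs and p-values do not use any pairing. Calls that change with the block are given beside the results. Alternatives were the block, 2 filters on dim genes, trend and robust settings, array weights, centring, a second quantile normalization, other summaries of probe sets, a wider reading of the symbols, and leaving out each array.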

Additional observations from a re-analysis of the deposited data

How the results depend on the processing

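Among the settings tried, the count of called members ran from 16 to 25 of 48 with all 6 arrays (20 as reported), and from 9 to 21 with 1 array left out, with 8 to 14 higher and 1 to 7 lower. For all genes, leaving out 1 array gave 1870 to 4448 called, 1365 to 2486 higher and 505 to 1962 lower. Centring each array on its median raised the lower genes to 3605 from 1851. Array weights gave 16 higher and 9 lower members. The block for the replicate number gave 15 higher and 6 lower members and 3874 called genes of all. It ended the calls of Gnas and Rgs16 and added Gnat1, Gng2 and Rgs6, and changed no other member's call. With the mean of a gene's probe sets, Rgs16 turned from -0.80 to 0.22 (adjusted p = 0.532) and Gnb1 from 0.15 to -0.98 (adjusted p = 0.016). That mean also ended the calls of Gnas (0.506), Gnaq (0.058), Rgs20 (0.331), Rgs3 (0.111) and Rgs5 (0.142). Other probe sets enter these means, and the cause was not tested further. Rgs16 was not called with trend and robust settings (0.0877), nor Rgs5 after a second quantile normalization (0.0661). Reading the rule to include symbols that begin with a member pattern adds Gnasas1, Gnb1l, Rgs7bp and Rgs9bp, and 1 call. With 3 arrays per group and values at or below 4.60 near background, falls of dim genes such as Rgs5 and Gng3 cannot be measured.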
